A study of Mus musculus with 2 samples.

Results

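Among mouse hepatocytes kept in an induction medium, the 110 cells with the highest share of transcripts from 6 genes, Sox4, Gas6, Gsta4, Abhd2, Ank and Myh9, are described here. They were taken from the single-cell library of the induction medium, in which 1245 cells had at least 500 detected genes and at most 25% mitochondrial UMIs (unique molecular identifiers, 1 per counted transcript molecule). Cells with 3 or more UMIs of S100a6 (51 cells) and cells with 2 or more UMIs over the mitotic genes Mki67, Top2a, Cdk1, Ube2c and Birc5 (107 cells, 10 of them in both sets) were set aside. The remaining 1097 cells were ranked by the summed UMIs of the 6 genes over all UMIs of the cell, and the top 10% were taken. The 987 other ranked cells were the cells compared with, and the whole study held 2436 cells past the filter, of 2483 barcodes.

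The study grew hepatocytes, which carry out most of the liver's metabolism, from C57BL/6 mice in 3 dimensions in Matrigel, a gel of basement membrane proteins. One library was made from an expansion medium. It held 3 uM CHIR99021, which blocks GSK3 and so stabilises beta-catenin, 100 ng/mL TNF, 25 ng/mL EGF and 50 ng/mL HGF. The other was made from an induction medium with 3 uM dexamethasone, a synthetic glucocorticoid, and the same amounts of EGF and HGF, without CHIR99021 and TNF. Both media held 10 uM Y27632 (an inhibitor of ROCK, the kinase that activates myosin), 1 uM A83-01 (an inhibitor of TGF-beta receptors), 100 mM nicotinamide and 1.25 mM N-acetylcysteine. The sources used here do not give the age, sex or number of the mice behind a library.

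Hepatocytes placed in culture with growth factors are known to lose part of their metabolic and secretory programme and to take up genes of the cytoskeleton, of the bile duct lineage and of the regenerating liver. Glucocorticoids and the withdrawal of proliferative signals are used to bring the hepatic programme back. Sox4 is a transcription factor of progenitor cells that is needed, with Sox9, for bile duct development. Gas6 is a secreted ligand of the TAM receptor kinases, Gsta4 is a glutathione transferase that detoxifies lipid aldehydes, Abhd2 is a serine hydrolase, Ank carries pyrophosphate out of cells, and Myh9 is the heavy chain of non-muscle myosin.

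The 110 cells held 806481 UMIs, with a median of 7021.5 UMIs and 2147 genes per cell, and the 987 other ranked cells held 6812033 UMIs, with a median of 6449 UMIs and 1926 genes. The 1191 cells of the expansion library were deeper, with a median of 23184 UMIs. The median share of mitochondrial UMIs was 4.84% in the 110 cells, 7.19% in the other ranked cells and 6.32% in expansion medium, and the share of ribosomal protein UMIs was 24.6%, 20.6% and 32.5%. Levels below are CPM, the UMIs of a gene summed over a set of cells and scaled to 1000000 UMIs of that set. Each medium has 1 library and cells of 1 library are not replicates, so no difference has a test. All intervals are at 95% and reflect only the error of counting.

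The 6 genes chose the cells, so their values describe the choice and test nothing. The cells selected held a median of 12.3 UMIs of the 6 genes per 10000 UMIs (range 8.34 to 39.8), and the other ranked cells a median of 1.65 (range 0 to 8.33). The last cell inside held 3 such UMIs of 3597, and the first cell outside held 5 of 6005. There was no gap between them, and 58 ranked cells lay within 20% of the lowest share selected. The selected cells rest on few molecules, with a median of 8 UMIs of the 6 genes and as few as 2. Sox4 gave 42.8% of them.

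**Figure D1:**
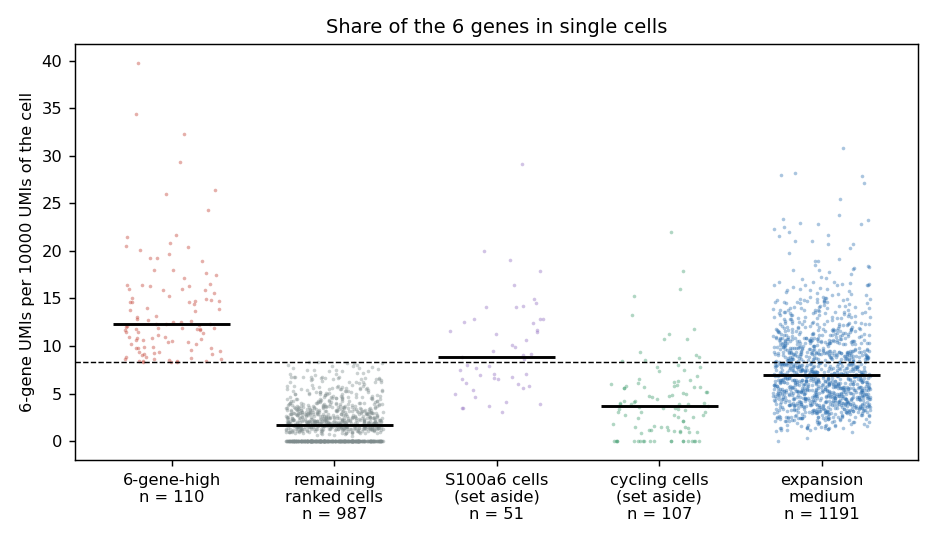
UMIs of the 6 genes per 10000 UMIs of the cell (vertical axis), 1 point per cell, in the cells selected by this share (6-gene-high), the remaining ranked cells, the S100a6 and cycling cells set aside (10 cells are in both), and the expansion library. Black lines are medians (12.3, 1.65, 8.88, 3.68 and 6.98), and the dashed line is the lowest share selected, 8.34, which 449 of the 1191 expansion cells reached.

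The selected cells were proposed as expansion-like cells, and the levels of the 6 genes in the expansion library are set beside theirs here. In the expansion library the same share had a median of 6.98, and 37.7% of its cells (449 of 1191, exact binomial interval 34.9 to 40.5) reached the lowest share selected. Thinned to 2000 UMIs per cell, at least 2 UMIs of the 6 genes were found in 79 of 107 selected cells (73.8%, with 3 shallower cells left out), in 6.56% of the other ranked cells and in 44.7% of the expansion cells. The S100a6 cells that had been set aside had a median share of 8.88, above that of the expansion library. Ank was listed at 53.3 CPM in the cells selected on it, 19.2 CPM in the other ranked cells and only 9.63 CPM in expansion medium, so this gene does not mark the expansion library. Abhd2 stood at 310 CPM in the cells selected on it, 32.9 in the others and 46.7 in expansion medium. Gsta4 (250, 47.9 and 327 CPM) and Gas6 (81.8, 15.9 and 122 CPM) were highest in expansion medium. Sox4 (613, 52.0 and 221 CPM) and Myh9 (122, 35.5 and 60.1 CPM) were highest in the cells selected on them. The levels in the selected cells follow from the choice, so a level above the expansion library does not bear on the name. Ank, however, was lower in expansion medium than even in the other ranked cells. For this, and for the gene groups below, the cells are called 6-gene-high cells and not expansion-like cells.

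Whether the 6 genes go together in single cells was read by leaving each out of the share in turn and choosing the top 10% on the other 5. All 6 genes were higher in the cells chosen without them. Sox4, at chromosome 13, 28948919 to 28953713 on the minus strand, stood at 360 CPM in cells chosen on the other 5 genes and at 84.7 CPM in the rest, a log2 ratio of 2.09 (1.87 to 2.30), and 75 of these 110 cells were also 6-gene-high cells. Abhd2 (chromosome 7, 79273199 to 79365508) had a log2 ratio of 2.25 (210 against 44.2 CPM), and Gas6 (chromosome 8, 13465374 to 13494490) one of 1.82 (63.8 against 18.0 CPM). Gsta4 (chromosome 9, 78182774 to 78209349) had a log2 ratio of 1.63 (176 against 56.9 CPM), and Myh9 (chromosome 15, 77760587 to 77842175) one of 1.42 (101 against 37.9 CPM). Ank, on chromosome 15 from 27466677 to 27594909, had the lowest log2 ratio, 0.89 (0.28 to 1.46), from 31 UMIs in the chosen cells. For Ank the ratio rests on few UMIs and on the choice of cells. It was 0.01 (-1.07 to 0.93, from 10 UMIs) when 5% of the cells were chosen and 0.02 (-0.75 to 0.71, from 19 UMIs) when cells were thinned to 2000 UMIs before the choice, intervals too wide to show that the link was lost. It was 0.89 with the top 20% and 0.88 within 10 bins of UMIs.

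Beyond the 6 genes, 6-gene-high cells had more transcripts of the cytoskeleton and of the ductal gene osteopontin (Spp1) than the other ranked cells, and fewer of hepatic glucose and lipid metabolism and of acute phase proteins. With 20 CPM in either set as the minimum, 5346 genes were measured. Of these, 1024 (19.2%) were at least 1.5-fold higher with an interval above a ratio of 1, and 448 (8.38%) were lower by the same rule. "Higher" and "lower" stand for these calls from here on. The median gene had a log2 ratio of 0.19, and relative to it 639 genes were higher and 681 lower, so the share of higher genes among the calls went from 69.6% to 48.4%. Of the 1024 higher genes, 932 (91.0%) also lay above their level in the expansion library, against 78.6% of all measured genes. The minimum level and the calls used the 6-gene-high and other ranked cells, not the expansion library. Both shares, and the counts of genes above their expansion level given below, therefore partly follow from the choice of genes.

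The largest ratio upward came from few cells. Plat, which encodes tissue plasminogen activator, stood at 57.0 CPM in 6-gene-high cells, 1.32 CPM in the other ranked cells and 7.76 CPM in expansion medium, a log2 ratio of 5.43 (4.38 to 6.65). Its UMIs were found in 13 of the 110 cells, and the 11 cells richest in it held 95.7% of them. Marcks, an actin-binding substrate of protein kinase C, stood at 139, 4.70 and 32.0 CPM in the same order, and 40 of the 110 cells had a UMI of it, against 24 of the other 987. The alpha-tubulin gene Tuba1a (chromosome 15, 98949837 to 98953703) stood at 174 CPM in 6-gene-high cells, 6.75 CPM in the others and 38.2 CPM in expansion medium, a log2 ratio of 4.68 (4.19 to 5.20). It was found in 50 of 110 and 25 of 987 cells, and after thinning to 2000 UMIs in 14.95% and 1.23%.

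Spp1 (chromosome 5, 104435118 to 104441050), a secreted phosphoprotein of bile duct cells and of injured hepatocytes, was the most abundant of these genes. It stood at 2481 CPM in 6-gene-high cells, 128 CPM in the other ranked cells and 1307 CPM in expansion medium, a log2 ratio of 4.28 (4.16 to 4.39). Its distribution was uneven. The lower quartile of the 6-gene-high cells was at 0, the median at 2.39, the upper quartile at 19.97 and the highest cell at 363 UMIs per 10000, whereas the expansion cells had quartiles of 3.58, 7.45 and 14.9. Thus 68 of the 110 cells had any Spp1 UMI, against 214 of the other 987 and 1188 of the 1191 deeper expansion cells. Thinned to 2000 UMIs, the shares were 46.7%, 10.6% and 71.4%. The annexin gene Anxa3 (95.5, 4.55 and 12.2 CPM in 6-gene-high, other ranked and expansion cells), the matrix protein gene Tinagl1 (242, 12.3 and 84.4 CPM) and the IGF carrier gene Igfbp3 (205, 14.2 and 49.4 CPM) had the same order, with the expansion library in between. Ctxn1, Serpine2 (an inhibitor of plasminogen activators), Shisa4 and Sh3bgrl3 did as well, with log2 ratios from 3.26 to 3.83. Gsta1, a glutathione transferase, was the exception among the 12: it stood at 63.2 CPM in 6-gene-high cells, 6.31 CPM in the others and 125 CPM in expansion medium.

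**Figure D2:**
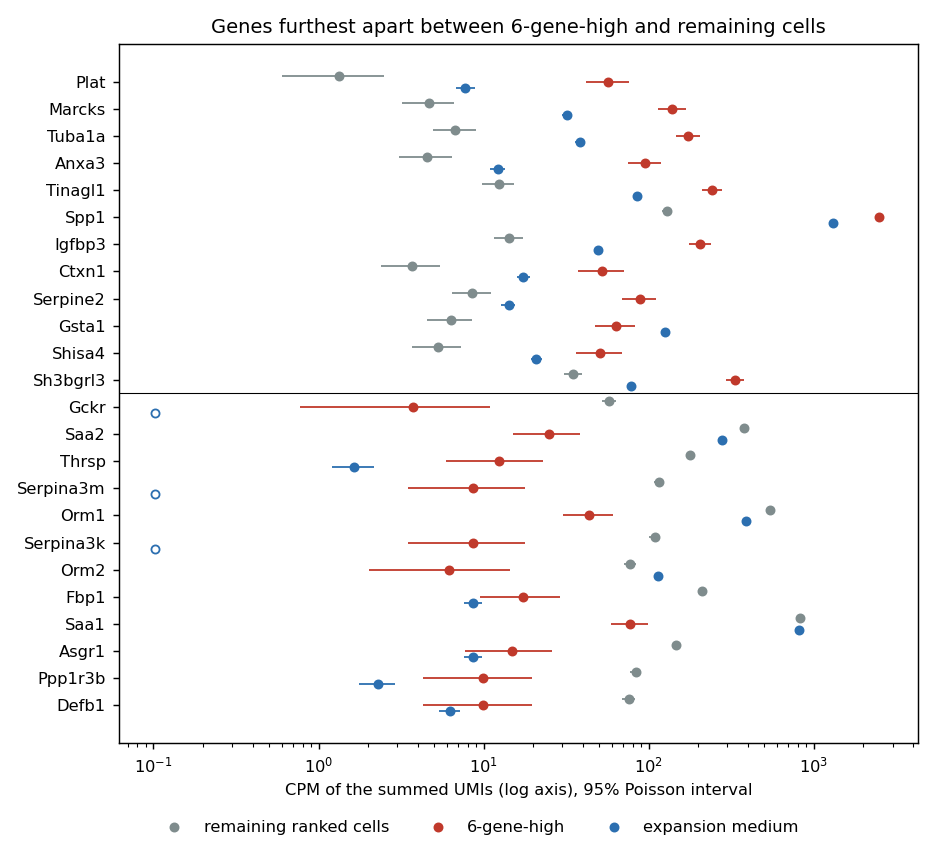
CPM of summed UMIs on a log axis, with 95% Poisson intervals, for the 12 genes with the largest ratios upward (above the line) and the 12 with the largest ratios downward (below it) in 6-gene-high over remaining ranked cells. Open circles stand at the level of 3 UMIs for genes with fewer in the expansion library. In the upper block only Gsta1 is higher in expansion medium than in 6-gene-high cells, and in the lower block Saa1, Saa2, Orm1 and Orm2 are high in both remaining cells and expansion medium and low in 6-gene-high cells.

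The 12 largest ratios downward joined metabolic regulators and plasma proteins. Gckr, a regulator of hepatic glucose use, had 3 UMIs in 6-gene-high cells (3.72 CPM) and stood at 57.7 CPM in the others, a log2 ratio of -3.96 (-6.24 to -2.40). Thrsp, a regulator of fat synthesis (12.4 against 179 CPM), Fbp1, an enzyme of glucose synthesis (17.4 against 211 CPM), Ppp1r3b, which directs glycogen synthesis (9.92 against 83.2 CPM), and Asgr1, a subunit of the hepatocyte receptor for asialoglycoproteins (14.9 against 147 CPM), were of the first kind or of the cell surface. In expansion medium Thrsp stood at 1.63, Fbp1 at 8.64, Ppp1r3b at 2.28 and Asgr1 at 8.68 CPM, so in these genes the 6-gene-high cells lay between the other ranked cells and the expansion library. Among the second kind the serum amyloid and orosomucoid genes did not follow this order. Saa1 (chromosome 7, 46740497 to 46742980), a serum amyloid gene of the acute phase, stood at 76.9 CPM in 6-gene-high cells, 826 CPM in the other ranked cells and 818 CPM in expansion medium. Saa2 (24.8, 377 and 279 CPM), Orm1 (43.4, 544 and 390 CPM) and Orm2 (6.20, 77.1 and 114 CPM), which encode further acute phase proteins, were likewise lower in 6-gene-high cells than in both. Serpina3k and Serpina3m, both at 8.68 CPM against 109 and 116 CPM, had no UMI in expansion medium, where the floor of 3 UMIs is 0.102 CPM, and so did follow it. The beta-defensin gene Defb1 stood at 9.92 against 75.6 CPM. The UMIs of these plasma protein genes were unevenly spread. In the other ranked cells the richest 10% of cells held 79.5% of Saa1, 92.6% of Saa2, 67.2% of Orm1 and 82.5% of Orm2 UMIs. For Serpina3k this share was 95.1% and for Serpina3m 63.7%. The median cell had no UMI of these 6 genes in either set. Saa1 was found in 22 of 110 6-gene-high and 433 of 987 other ranked cells. Members of the Saa, Orm, Serpina3 and Gsta families are near-identical in parts, so the split of UMIs within a family is uncertain.

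Lists of genes with shared functions were read against the background of 19.2% higher and 8.38% lower. Of 26 measured genes of actomyosin and focal adhesions, the contractile and anchoring machinery to which Myh9 belongs, 24 were higher and none was lower. Their median log2 ratio was 1.11 above that of the median gene, and relative to the median gene 20 were higher. The list summed to 9359 CPM in 6-gene-high cells, 4370 in the other ranked cells and 6093 in expansion medium, and 25 of the 26 genes were above their expansion level. It summed to 12989 CPM in the S100a6 cells set aside and to 7968 CPM in the cycling cells. A high level was thus not particular to the 6-gene-high cells. Actb, a cytoskeletal actin, stood at 2543 CPM against 922 CPM, the annexin gene Anxa2 at 249 against 47.7 CPM, and the laminin receptor subunit gene Itga3 at 52.1 against 6.75 CPM. Per cell, Actb had a median of 11.9 UMIs per 10000 in 6-gene-high cells and 6.11 in the others, and the 11 6-gene-high cells richest in it held 48.8% of its UMIs.

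Of 11 tubulins and thymosins, small proteins that hold actin monomers, 7 were higher and none was lower. Their sum was 6334 CPM in 6-gene-high cells, 1879 CPM in the others, 8756 CPM in the S100a6 cells and 6232 CPM in the cycling cells. Tmsb10 stood at 2534 CPM in 6-gene-high cells, 762 CPM in the others and 2912 CPM in expansion medium. The beta-tubulin gene Tubb2b stood at 45.9, 3.23 and 16.2 CPM, whereas Tuba1c, Tuba4a and Tubb2a had log2 ratios of -0.35, -0.41 and -0.15 and were not called. The tubulin genes thus did not move as one family. Of 14 keratins and junction genes, 9 were higher and 2 lower, and their sum was 2780 CPM in 6-gene-high cells and 4717 CPM in the S100a6 cells. Krt18, a keratin of simple epithelia, stood at 1202, 286 and 471 CPM in 6-gene-high, other ranked and expansion cells, and its partner Krt8 at 518, 179 and 161 CPM. The 2 lower genes, Gjb1 (118 against 195 CPM) and Gjb2 (70.7 against 171 CPM), encode the connexins of hepatocyte gap junctions.

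Ductal and progenitor genes summed to 8088 CPM in 6-gene-high cells, 2546 CPM in the others, 11709 CPM in the S100a6 cells and 9368 CPM in expansion medium. Of the 8 measured genes of this list, 7 were higher and none was lower. Besides Spp1 these were the secreted chaperone gene Clu (4521, 1950 and 7202 CPM), the repair-associated gene Sprr1a (141, 14.8 and 71.9 CPM), Cd24a, Prom1, Bicc1 and Onecut2. Sox9, the ductal partner of Sox4, stood at 107, 73.4 and 103 CPM, a log2 ratio of 0.54 (0.19 to 0.87), and was not called. Of the 8 cholangiocyte markers, Krt19, Krt7 and Cldn4 had no UMI in 6-gene-high cells, Epcam had 4 and Cftr 7, so the summed level of 2601 CPM came from Spp1 and Sox9. The list sum was 209 CPM in the other ranked cells, 4701 CPM in the S100a6 cells and 1426 CPM in expansion medium.

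Genes that cultured and regenerating hepatocytes are known to take up followed the same direction. Of 8 measured mesenchymal and dedifferentiation genes 7 were higher and none lower, with a median 1.56 above the median gene. Vim, an intermediate filament gene, stood at 367 CPM in 6-gene-high cells, 50.9 CPM in the others and 273 CPM in expansion medium, and it was found in 62 of 110 and 158 of 987 ranked cells. Fn1, which encodes fibronectin, stood at 672 against 705 CPM and was not called. Of 8 YAP and TEAD targets, genes of the pathway that senses cell shape and tension, 6 were higher and none lower, among them Cyr61 (57.0, 18.6 and 25.6 CPM) and Myof (33.5, 3.82 and 10.7 CPM). Of 10 genes of the EGF and HGF pathway, whose ligands both media held, 5 were higher and none lower. Hbegf, an EGF receptor ligand, stood at 29.8 against 5.14 CPM, the ERK phosphatase gene Dusp5 at 22.3 against 4.11 CPM, and Egfr itself, at 69.4 against 56.2 CPM, was not called. The S100a6 cells set aside had higher sums than the 6-gene-high cells in each of these lists. These were 6777 against 3724 CPM for mesenchymal and dedifferentiation genes, 618 against 568 CPM for YAP and TEAD targets and 744 against 432 CPM for the EGF and HGF pathway.

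**Figure D3:**
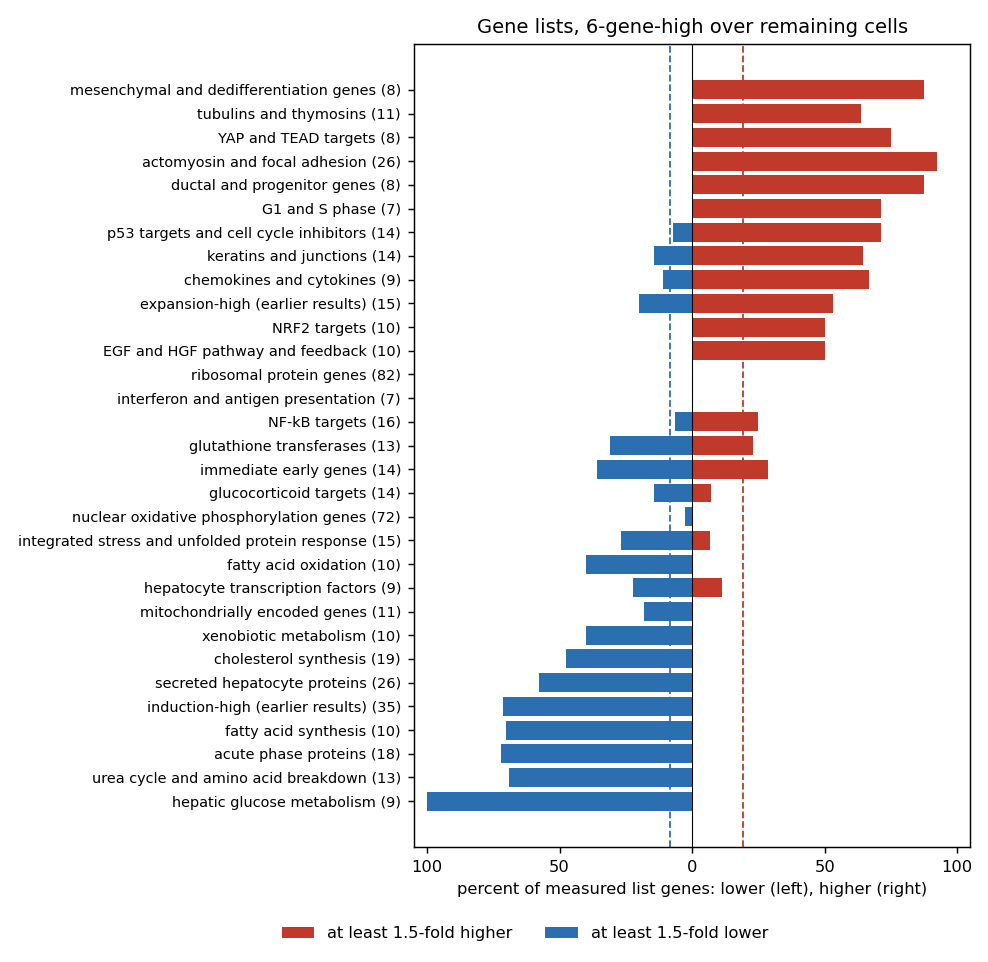
Percent of the measured genes of each list that were at least 1.5-fold higher (right) or lower (left) in 6-gene-high cells than in the remaining ranked cells, for lists with 7 or more measured genes (number in brackets), ordered by median log2 ratio. Dashed lines mark the background of all measured genes, 19.2% higher and 8.38% lower; cytoskeletal, ductal and dedifferentiation lists lie far above it on the right, and metabolic and acute phase lists on the left.

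Each metabolic list given here had lower genes and no higher gene, whereas the bile acid list, given at the end, had no call among 3 measured genes. In hepatic glucose metabolism all 9 measured genes were lower, with a summed level of 1593 CPM in 6-gene-high cells, 6809 CPM in the others and 316 CPM in expansion medium. Lower were also 9 of 13 in the list of urea cycle and amino acid breakdown, 7 of 10 in fatty acid synthesis, 9 of 19 in cholesterol synthesis, 4 of 10 in fatty acid oxidation and 4 of 10 in xenobiotic metabolism, and none of these lists had a higher gene. Bhmt, which remethylates homocysteine, stood at 206, 713 and 2.42 CPM in 6-gene-high, other ranked and expansion cells. Arg1, the last enzyme of the urea cycle, stood at 17.4 against 100.7 CPM, and Otc had 1 UMI against 22.6 CPM, a log2 ratio of -4.19 (-9.50 to -1.69). Scd1, which desaturates fatty acids, stood at 920, 3039 and 458 CPM, and the drug-metabolising gene Cyp3a11 at 717, 2546 and 4.25 CPM. In each of these examples but Otc the 6-gene-high cells lay between the other ranked cells and the expansion library. Cholesterol synthesis did not have this order: the list summed to 1541 CPM in 6-gene-high cells, 2251 CPM in the others and 1987 CPM in expansion medium, and 6 of its 19 genes were above their expansion level.

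Secreted hepatocyte proteins were lower in 15 of 26 genes and higher in none. Alb, which encodes albumin, was found in every 6-gene-high cell and stood at 11625 CPM, against 22948 CPM in the other ranked cells and 1737 CPM in expansion medium. Per cell its median was 95.2 UMIs per 10000 in 6-gene-high cells (2.05 to 717), 176 in the others and 10.2 in expansion cells, so the ranges overlapped. Apoa2, an apolipoprotein gene on chromosome 1 from 171225054 to 171226379, stood at 427, 3063 and 34.5 CPM, and Serpinc1, which encodes antithrombin, at 54.6, 341 and 3.88 CPM. Of 9 measured hepatocyte transcription factors 1 was higher and 2 were lower. Hnf4a, the central factor of hepatocyte identity, stood at 219, 270 and 93.4 CPM and was not called, Foxa2 was higher (31.0 against 15.6 CPM), and the bile acid receptor gene Nr1h4 was lower (28.5 against 51.8 CPM). All 10 hepatocyte markers had UMIs, with a sum of 47333 CPM in 6-gene-high cells, 74178 CPM in the others, 41011 CPM in expansion medium and 17771 CPM in the S100a6 cells.

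The genes that set the media apart as a whole were read as a pair of lists taken from earlier results of these libraries, in which the 6-gene-high cells took part, so they are not independent evidence of a direction. Of 35 measured genes of the induction-high list, 25 were lower in 6-gene-high cells than in the others and none was higher, and all 35 were above their level in expansion medium. Of 15 measured genes of the expansion-high list, 8 were higher (Gsta1, Cxcl3, Vcam1, Cyp1b1, Clu, Prom1, Spp1 and Slc1a2), 3 were lower (Pigr, Fabp5 and Ang) and 4 were not called. Only Spp1 was above its expansion level, and the other 14 were below it. Fabp5, a fatty acid carrier, stood at 48.4 CPM in 6-gene-high cells, 108 CPM in the others and 365 CPM in expansion medium, and the antibody transporter gene Pigr at 8.68, 22.6 and 150 CPM. The count of 8 fell to 5 when the top 10% were taken within 10 bins of UMIs per cell, and to 5 with a minimum of 50 CPM.

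Of 14 measured glucocorticoid targets 1 was higher, 2 were lower and 11 were not called, and all 14 were above their expansion level. Relative to the median gene 6 of them were lower, against 12.7% of all measured genes. The list summed to 7215 CPM in 6-gene-high cells, 9296 CPM in the others and 3313 CPM in expansion medium, and within the 6-gene-high cells to 4615 CPM in cluster 4, 6308 CPM in cluster 7 and 13584 CPM in cluster 5, 3 of the clusters described below. Fkbp5, a co-chaperone of the glucocorticoid receptor, stood at 157 CPM in 6-gene-high cells, 120 CPM in the others and 16.3 CPM in expansion medium. The transaminase gene Tat stood at 120, 174 and 0.034 CPM, the last from 1 UMI, and Zbtb16, a transcription factor gene, at 28.5, 29.8 and 0.783 CPM. Sgk1, a glucocorticoid-induced kinase gene, was higher (184, 96.2 and 96.8 CPM), and the metallothionein gene Mt1 stood at 3679, 4963 and 2102 CPM. G6pc, the last step of glucose release, was lower, with 2 UMIs against 20.7 CPM (log2 ratio -3.06, -6.12 to -1.18). Of 14 Wnt and beta-catenin targets only Glul reached the minimum level, at 167 against 170 CPM.

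Among genes that TNF is known to raise, the groups parted. Of 18 acute phase genes 13 were lower and none was higher, and the list summed to 31835 CPM in 6-gene-high cells, 53114 CPM in the others and 55042 CPM in expansion medium. Saa3 stood at 2084, 9722 and 17312 CPM, and Hp, which encodes haptoglobin, at 13291, 17394 and 15199 CPM and was not called. By this sum, to which abundant genes add most, the 6-gene-high cells were further from the expansion library than the other ranked cells were. Of the 18 genes, 6 were above their expansion level, among them Serpina3m, which had no UMI there. Within the 6-gene-high cells the list summed to 22100 CPM in cluster 4, 36148 CPM in cluster 7 and 43382 CPM in cluster 5. Of 16 NF-kB targets 4 were higher and 1 was lower, with a median 0.05 below the median gene. Their sum was 2867 CPM in 6-gene-high cells and 2544 CPM in the others, but the clusters differed. In the 6-gene-high cells it was 1301 CPM in cluster 4, 3245 CPM in cluster 7 and 5595 CPM in cluster 5. The adhesion receptor gene Vcam1 stood at 67.0, 24.2 and 166 CPM, and Sod2, a mitochondrial superoxide dismutase gene, was lower, at 239, 527 and 400 CPM. Of 9 chemokines and cytokines 6 were higher and 1 was lower. Ccl2, which attracts monocytes, stood at 699 CPM in 6-gene-high cells, 186 CPM in the others and 748 CPM in expansion medium, and Ccl7 at 38.4, 4.55 and 34.8 CPM. In the 6-gene-high cells of clusters 4, 7 and 5, Ccl2 stood at 1099, 702 and 7.93 CPM, the last from 1 UMI. Cxcl1, which attracts neutrophils, was lower, at 897, 1355 and 1073 CPM, and Cxcl5 stood at 86.8, 90.9 and 706 CPM. None of 7 interferon and antigen presentation genes was called, and B2m stood at 1319 against 1295 CPM.

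Cell cycle genes of the G1 phase were higher, in cells from which mitotic cells had been removed. Of 7 measured G1 and S phase genes 5 were higher and none lower. This list summed to 1662 CPM in 6-gene-high cells, 767 CPM in the others and 2810 CPM in the S100a6 cells. Ccnd2 stood at 365 CPM in 6-gene-high cells, 69.9 CPM in the others and 159 CPM in expansion medium, Ccnd1 at 853, 445 and 553 CPM, and Cdk6, a kinase that cyclin D activates, at 102, 29.9 and 57.7 CPM. Of 14 p53 targets and inhibitors of the cell cycle, 10 were higher and 1 lower. Cdkn2a, the gene of p16 and p19ARF, stood at 103, 30.7 and 72.3 CPM, Cdkn2b at 47.1, 16 and 42.8 CPM, and Btg2, at 451 against 376 CPM, was not called. Both the drivers and the brakes of G1 were thus higher in the summed cells, but not in every cluster. In 6-gene-high cells of clusters 4, 7 and 5, Ccnd2 stood at 677, 256 and 23.8 CPM and Cdkn2a at 199, 66.2 and 15.9 CPM. The cluster 5 values were below those of the other ranked cells and came from 3 and 2 UMIs. Ccnd1, at 886, 875 and 848 CPM, was above the other ranked cells in all of these clusters. The 5 mitotic genes were limited by the choice of cells and had 1 to 3 UMIs each, and of 20 further mitotic genes only Cks2 was measured, at 34.7 against 57.4 CPM.

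The families of the 6 genes did not follow them as a whole. None of the 4 genes of the list of Gas6 receptors and partner reached the minimum level: Axl stood at 12.4 CPM in 6-gene-high cells and 0.294 CPM in the others, Pros1 at 4.96 against 11.01 CPM, and Mertk and Tyro3 had no UMI in 6-gene-high cells, where the floor of 3 UMIs is 3.72 CPM. Of 13 glutathione transferases measured beside Gsta4, 3 were higher and 4 lower. Gstm5 (785, 273 and 248 CPM) was higher, and Gstm1 stood at 1390, 1320 and 608 CPM. Of 10 targets of NRF2, the factor that answers oxidative stress, 5 were higher and none lower, among them the cystine carrier gene Slc7a11 (37.2, 7.93 and 11.7 CPM) and the efflux pump gene Abcc4 (26.0, 1.91 and 8.06 CPM). Of 4 measured genes of pyrophosphate and mineral handling, the field of Ank, Spp1 was higher and Fetub lower (57.0 against 110 CPM). Of 3 Sox partners, Tcf3 (48.4 against 21.4 CPM) and Tcf12 (63.2 against 33.9 CPM) were higher.

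Genes differed in how their level changed at the limit of the top 10%, below which 110 ranked cells had 4.58 to 8.33 UMIs of the 6 genes per 10000. Tmsb10 stood at 3110 CPM in the 28 cells with the highest shares, 1781 CPM in the 27 6-gene-high cells with the lowest, 1413 CPM in the 110 cells below them, 700 CPM in the 538 later cells with any UMI of the 6 genes and 633 CPM in the 339 cells with none. Apoa2 stood at 449, 680, 1300, 3126 and 3632 CPM in the same sets. Spp1 did not follow the rank within the 6-gene-high cells, with 4338, 2787, 378 and 2337 CPM in the 4 sets from the highest to the lowest share, and 574 CPM in the next 110 cells. Nor did Marcks, with 201, 161, 40.9 and 148 CPM in the same 4 sets, the third from 8 UMIs. It stood at 15.4 CPM in the next 110 cells. Serpine2, at 69.4 CPM in these 110 cells, was above the 2 lowest 6-gene-high sets (5.11 and 29.6 CPM).

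**Figure D4:**
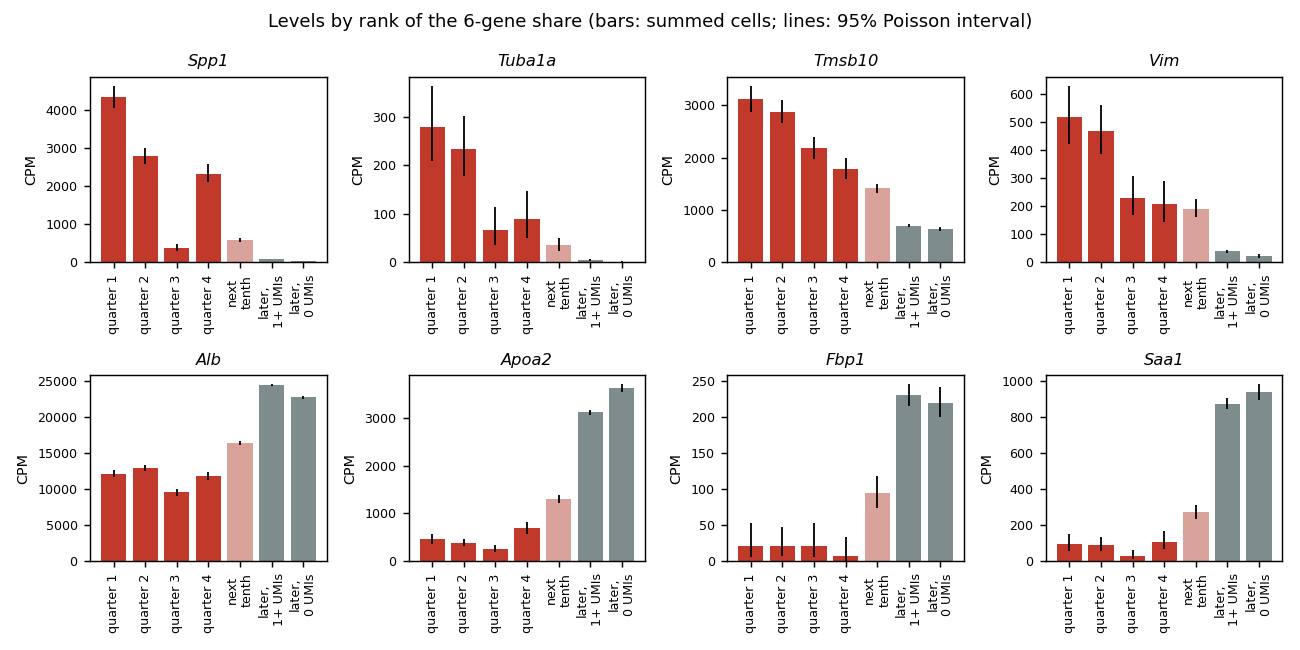
CPM of 8 genes in cells ordered by the 6-gene share: 6-gene-high cells in 4 sets of 28, 28, 27 and 27 cells (red), the next 110 cells (light red) and the later cells with and without any UMI of the 6 genes (grey), with 95% Poisson intervals. The next 110 cells lie between every red and every grey bar for 7 of the genes, and for Spp1 they are, at 574 CPM, above the 378 CPM of the third red bar.

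The 6-gene-high cells were not 1 cluster. Among 8 clusters of all filtered induction cells, 37 of them lay in cluster 4, 41 in cluster 7, 23 in cluster 5 and 9 elsewhere. Cluster 4, led by Sprr1a, Serpine2, Spp1, Anxa3, Hmga2 and Igfbp3, also held 46 of the 51 S100a6 cells set aside, and 14 of its 37 6-gene-high cells had an S100a6 UMI. Cluster 7 was led by Gsta1, Ccl2, Itgav, Rgs5, Chmp4c and Cyp1b1, and cluster 5, in which 98.6% of cells had Xist, by Slc22a30, Slco1b2 and Tat. With the 6 genes left out, 32.7% of the 15 nearest neighbours of a 6-gene-high cell were 6-gene-high cells, which made up 8.84% of all cells, 53.3% were other ranked cells and 11.5% were S100a6 cells. Among neighbours of the other ranked cells, 3.999% were 6-gene-high cells.

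Much of the pattern above differed between these clusters, whose genes defined them, so the values are a description. Sox4 stood at 820 CPM in the 6-gene-high cells of cluster 4, 518 CPM in those of cluster 7 and 476 CPM in those of cluster 5, and Gsta4 at 307, 233 and 262 CPM. Spp1 stood at 6091, 716 and 39.6 CPM, Sprr1a at 384 CPM, 11.5 CPM and no UMI, Tuba1a at 408, 60.4 and 15.9 CPM, and Vim at 659, 279 and 47.6 CPM. Of the 12 genes with the largest ratios upward, 11 had most of their UMIs in the 37 cells of cluster 4, and Gsta1, at 62.8 CPM there, was highest in cluster 7 (86.3 CPM). Plat stood at 143 CPM there, 14.4 CPM in cluster 7 and had no UMI in cluster 5. Actb was highest in cluster 7 (3297 CPM, against 2104 in cluster 4 and 1569 in cluster 5), and all of these lay above the 922 CPM of the other ranked cells. Alb stood at 9133, 10652 and 17031 CPM, Apoa2 at 52.3, 348 and 1545 CPM, and Cyp3a11 at 13.9, 334 and 3178 CPM, the last above the 2546 CPM of the other ranked cells. H19, a fetal liver RNA, stood at 10.47, 106 and 856 CPM. Saa1 was low in all 3 groups, at 6.98, 127 and 127 CPM against 826 CPM.

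**Figure D5:**
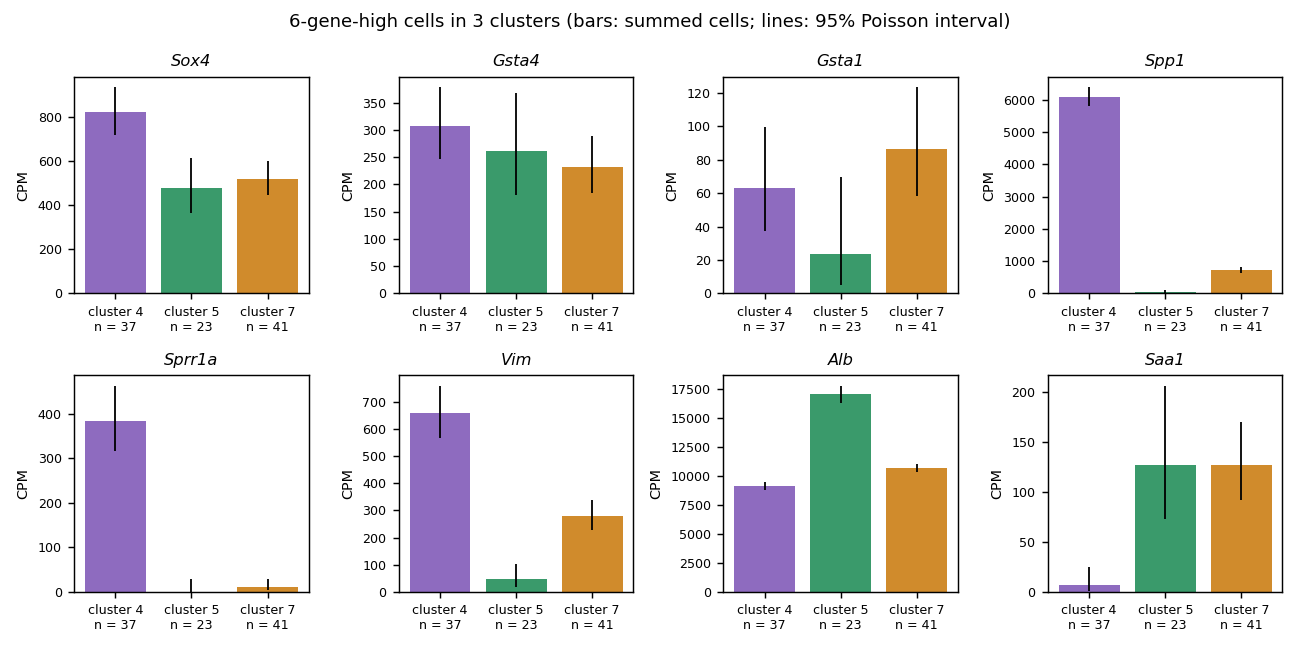
CPM of 8 genes in the 6-gene-high cells of clusters 4, 5 and 7 (37, 23 and 41 cells), with 95% Poisson intervals on the summed UMIs. Sox4 and Gsta4, which chose the cells, are found in all 3 groups, while Spp1, Sprr1a and Vim are highest in cluster 4 and Alb is highest in cluster 5.

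S100a6 and sex moved with the choice. Of the 110 6-gene-high cells 17 (15.5%) held an S100a6 UMI below the limit of 3, against 14 of 987 (1.42%), and S100a6 stood at 24.8 CPM against 2.79 CPM. When cells with any S100a6 UMI were dropped before ranking, an alternative added after the data were seen, 93 of 107 selected cells were the same cells, and 774 of the 1024 higher and 312 of the 448 lower genes were called again. Xist, the RNA of the inactive X chromosome (chromosome X, 103460366 to 103483254), without Y-linked UMIs was found in 66 of 110 6-gene-high cells (60%, 50.2 to 69.2) and 284 of 987 other ranked cells (28.8%, 26.0 to 31.7). UMIs of Ddx3y, Eif2s3y, Kdm5d or Uty without Xist were found in 23 (20.9%) and 417 (42.2%). Cells of females and males were thus mixed in the library, and animal and sex cannot be told apart. Of the 1024 higher genes 940 (91.8%) were above the other ranked cells among Xist cells and among Y cells, and of the 448 lower genes 437 (97.5%) were below them in both. These same cells took part in the calls, so the shared direction was largely built in and tests nothing. With the choice made again among cells with Xist, with or without Y-linked UMIs, 37 cells were chosen, all 37 of them 6-gene-high cells. Of the 1024 higher genes 432 were called again, and of the 448 lower genes 248. Among Y cells without Xist 44 cells were chosen, 23 of them 6-gene-high cells, and these counts were 548 and 282. Both sets are smaller than 110 cells, which widens the counting intervals, so the fall in calls does not measure a part of sex. Spp1 had log2 ratios of 4.15 among Xist cells and 4.29 among Y cells, Alb -0.69 and -1.41, Sprr1a 3.64 and 0.61, and H19 -2.19 and -4.73.

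Markers of other liver cells were at or near 0. In 6-gene-high cells none of the 9 stellate cell and fibroblast, 8 Kupffer cell and macrophage, 4 neutrophil, 4 T and NK cell and 4 B and plasma cell markers had a UMI, and 1 endothelial (Stab2), 4 erythroid (Alas2) and 1 mesothelial (Msln) UMI were counted. Scrublet marked 4 induction cells as doublets, 1 of them a 6-gene-high cell, and all cells were kept. Of the 6-gene-high cells 6.36% lay above the 95th percentile of UMIs of the ranked cells, against 4.86% of the others. Xist and Y-linked UMIs together, a gauge of doublets and free RNA, were found in 2 of 110 (1.82%) and 15 of 987 (1.52%) cells. In the deeper expansion library they were found together in 275 of 1191 cells (23.1%). The part of depth, doublets and free RNA in this share was not tested. The libraries shared 4 barcodes. The part of depth, the mitochondrial and ribosomal shares, S100a6 and sex in these differences was not tested beyond the values given.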

How the data were processed

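Single-cell transcripts were counted in 1 library per medium. The authors deposited raw UMI counts by gene and barcode. The submitters' processing notes name Cell Ranger 2.1.1 and mm10, with an annotation release not given in the sources used here. Among 28692 gene IDs there are 67 repeated symbols, and 28416 IDs were matched to GENCODE M21 (GRCm38) for coordinates.

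Counts were summed over cells and divided by the summed total (CPM). Ratios carry exact conditional binomial intervals, levels Poisson and shares Clopper-Pearson intervals, each at 95%. No test was made. A gene was measured at 20 CPM and called at 1.5-fold with an interval that leaves out a ratio of 1. Fewer than 3 UMIs were taken as the floor. The 6 genes were left out of all counts. The members and 35 lists were chosen with earlier results of these data known. Genes were named by rule: the 6 genes, the 12 largest called ratios in each direction at 50 CPM or more (without mitochondrial, ribosomal protein and unnamed models), in each list its most abundant gene and its 2 largest ratios, the Gas6 receptors, cell type markers and the genes of sex and of the cell drops. Genes named by list call (5 or fewer), Cd24a, Prom1, Bicc1, Onecut2, Tuba1c, Tuba4a, Tubb2a, Gjb1, Gjb2, Fkbp5, Tat, Zbtb16, Saa3, Cxcl5, Cxcl3, Cyp1b1, Slc1a2, Pigr, Fabp5, Ang and cluster leaders were chosen after their values were seen. Some genes that met the rule are not reported here.

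Clusters came from scanpy 1.11.5 and igraph 0.11.9 (2000 variable genes, 20 components, 15 neighbours, resolution 0.6). The ratio code was tested on simulated data. Python 3.11.15, numpy 2.4.6 and scipy 1.17.1 were used. Alternatives covered the cell filters, the drops, the size of the top set, the depth of the choice, the scaling, sex, doublets, the minimum level, the fold and each of the 6 genes left out.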

Additional observations from a re-analysis of the deposited data

How the results depend on the processing

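Each medium has 1 library and cells were shallow, so the choice rests on few UMIs, and counting intervals say nothing of cultures or animals. No paired analysis was possible because each medium has 1 library and the results come from no test. Of the alternative values, 115 kept their size and 23 moved. The pooled 6-gene share of 14.3 per 10000 became 17.7 with the top 5%, 10.3 with the top 20%, 11.7 with thinning before the choice, 11.8 when one part of the UMIs chose and the other measured, 20.5 without mitochondrial and ribosomal UMIs, 17.0 in Xist cells, 10.4 in Y cells and 13.3 without any S100a6 UMI. Higher genes (1024) became 658 with thinning, 467 at a minimum of 50 CPM, 424 at 2-fold and 639 relative to the median gene. They became 613 in Xist cells, where only 37 cells were chosen. Lower genes (448) became 290 at 50 CPM, 233 at 2-fold and 681 relative to the median gene. Of the expansion-high list 5 genes instead of 8 were higher within 10 bins of UMIs, and 5 at 50 CPM. The 25 lower genes of the induction-high list stayed within 1.5 times under all alternatives. The median depth of 7021.5 UMIs became 3441 on one part of the UMIs, 8321 in Xist cells and 6303.5 without Sox4. The lowest left-out log2 ratio (Ank, 0.89) became 0.012 with the top 5% and 0.023 with thinning. The cause of these moves was not tested. The scaling to the median gene and the drop of any S100a6 UMI were chosen after seeing the data.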

Other observations

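No measured ribosomal protein or bile acid gene was called between 6-gene-high cells and the other ranked cells, and few nuclear genes of oxidative phosphorylation were. None of 82 measured ribosomal protein genes was called, although their summed level was 249897 CPM against 208048 CPM, and 81 of the 82 lay above their level in the other ranked cells. Of 72 nuclear genes of oxidative phosphorylation 2 were lower, and 8 relative to the median gene. Of 11 mitochondrially encoded genes 2 were lower, against 8.38% of all measured genes. Relative to the median gene 8 of the 11 were lower, against 12.7% of all measured genes. All 11 were below their level in the other ranked cells, with a sum of 52107 CPM against 71717 CPM and a median log2 ratio of -0.47. In the bile acid list none of the 3 measured genes was called: the export pump gene Abcc2 stood at 133 against 134 CPM, Abcc3 at 60.8 against 57.0 CPM and Baat, which conjugates bile acids, at 48.4 against 61.5 CPM.

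Stress genes parted. Of 15 genes in the list of integrated stress and unfolded proteins, 1 was higher and 4 were lower, with the chaperone gene Calr at 651 against 656 CPM and Herpud1, a gene of endoplasmic reticulum degradation, lower at 125 against 293 CPM. Of 14 immediate early genes 4 were higher and 5 lower: Ier3 stood at 144 against 50.9 CPM, Fosb at 12.4 against 34.8 CPM, and Egr1, at 311 against 406 CPM, was not called. Of the imprinted genes Igf2r was higher (42.2 against 21.1 CPM), H19 was lower (207 against 617 CPM), and Igf2, at 407 against 566 CPM, was not called.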
